A study of Caenorhabditis elegans with 2 samples.

Results

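The genes described here encode the proteins of the small subunit of the cytosolic ribosome in Caenorhabditis elegans. They were taken by name, as every protein-coding gene called rps followed by a number in the Ensembl annotation of assembly WBcel235. This gave 31 genes of 19973 protein-coding genes on the nuclear chromosomes. Each was examined for a binding site of ZTF-4, a protein named as a zinc finger transcription factor, in its promoter.

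Chromatin immunoprecipitation with sequencing (ChIP-seq), which recovers DNA fragments bound by a chosen protein, had been done on whole L1 larvae, the first larval stage. The worms were of strain OP322, with genotype unc-119(ed3) III and the insertion wgIs322, which carries eGFP-ztf-4, and males and females were pooled. There was 1 group, with biological replicates 1 and 2, and no untagged group was analysed here. The larvae were taken whole, so the signals of all cells that made the tagged protein were mixed. Which cell types these were is not known here. A site used in few cells therefore cannot be told apart from a weak site used in many.

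A ribosome is built from ribosomal RNA and many proteins, which cells need in nearly equal amounts. The small subunit binds the mRNA and reads its codons in the decoding centre, with a head and a body between which the mRNA runs. Its proteins fall into universal ones (names beginning uS), which bacteria share, and ones found in eukaryotes and archaea or in eukaryotes alone (grouped here as eS). Many worm genes for ribosomal proteins are trans-spliced, so the annotated 5' end of a gene can lie downstream of the place where transcription starts.

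A peak was counted for a gene when its summit lay in the promoter window, which reaches 1000 bp upstream of the annotated 5' end and 200 bp into the gene. The peaks were those that passed the authors' irreproducible discovery rate (IDR) threshold. This threshold rests on ranks that recur between replicates, but a peak that passed can still rank low in 1 replicate. ZTF-4 peaks of this kind were found at 18 of the 31 rps genes, or 58.1% (exact Clopper-Pearson 95% interval 39.1% to 75.5%, counting error only), against 6.07% of all protein-coding genes. These were 18 separate peaks, 1 in each window, and all 18 summits lay upstream of the rps gene. A further 11 genes had only a weaker region, below the IDR threshold, in the pooled list of both replicates. The remaining 2 genes, rps-16 and rps-25, had no pooled region in the window. With the weaker regions counted as well, 29 of 31 rps genes had a region in the window, against 32.6% of all genes.

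The height of each region is the signal value deposited by the authors, on a scale that belongs to its list. Pooled signals lie near the sum of both replicates and were compared only with each other. The 2 replicate lists were not rescaled to each other, and their signals are set side by side with a median ratio near 1 over all IDR peaks (given further on) and with their ranks. The pooled signals of the 18 peaks ranged from 51.9 to 501 with a median of 116. The median was 78.3 over the 1213 protein-coding genes with such a peak. In rank, 5 of the 18 were among the 100 strongest IDR peaks and 14 among the stronger 949 of the 1898.

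The strongest peak was that of rps-1, which encodes eS1, a protein of the platform near the exit of the mRNA channel. It covered chrIII:4475554-4475770 (ce11), with a signal of 261 in replicate 1, 242 in replicate 2 and 501 in the pooled list, rank 7 of all IDR peaks. Its summit lay at -255 bp from the gene and inside an exon annotated to F56F3.10, a non-coding gene. The peak of rps-12, which encodes eS12 in the head, followed at chrIII:5679041-5679222. It had a signal of 147 in replicate 1, 160 in replicate 2 and 305 pooled, with a summit at -155 bp. Both peaks were strong in either replicate, and no other rps peak was as high in the pooled list.

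The next 3 rps genes had peaks also among the 100 strongest. The peak of rps-20, for uS10 of the head, had signals of 116 and 149 in replicates 1 and 2 and 260 pooled, at -242 bp (chrI:14469256-14469446). That of rps-19, for eS19, whose human counterpart is a gene of Diamond-Blackfan anaemia, had 123 and 118 and 247 pooled, at -278 bp (chrI:9625992-9626165). That of rps-28, for eS28 near the mRNA exit, had 113 and 105 and 224 pooled, at -449 bp (chrIV:1659185-1659318). In these genes the replicates differed by at most 1.29 times. The proteins of all 5 strongest genes except eS1 belong to the head.

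Next in height came rps-15, for uS19, whose tail reaches towards the decoding site. Its signals were 75.2 in replicate 1, 64.4 in replicate 2 and 139 pooled, at -387 bp (chrI:8816529-8816638). The peak of rps-26, for eS26, which touches mRNA ahead of the start codon, had 93.5, 39.0 and 127 in the same order, at -413 bp (chrI:14759342-14759691). That of rps-0, for uS2 of the body, had 48.9, 74.8 and 126, at -315 bp (chrIII:4754191-4754540). Here the replicates went apart in opposite directions, with rps-26 higher in replicate 1 and rps-0 higher in replicate 2.

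The other 10 peaks ran from 124 pooled at rps-23, for uS12 of the decoding centre, down to 51.9 at rps-3, for uS3 at the mRNA entry. Between them, in falling order, lay rps-10 (eS10, 109), rps-13 (uS15, 97.8), rps-14 (uS11, 88.7), rps-4 (eS4, 74.8), rps-22 (uS8, 72.6), rps-21 (eS21, 59.8), rps-30 (eS30, 57.5) and rps-29 (uS14, 54.6). Of these proteins, uS15 takes part in a bridge to the large subunit, uS11 lies on the platform and uS14 is a small protein of the head. Mammals make eS30 as a fusion with a ubiquitin-like protein. All 6 member peaks that were narrower than the common width of 350 bp had a signal of 139 or more, and the 12 of the common width had 127 or less. Of all IDR peaks 91.4% had the common width.

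**Figure D1:**
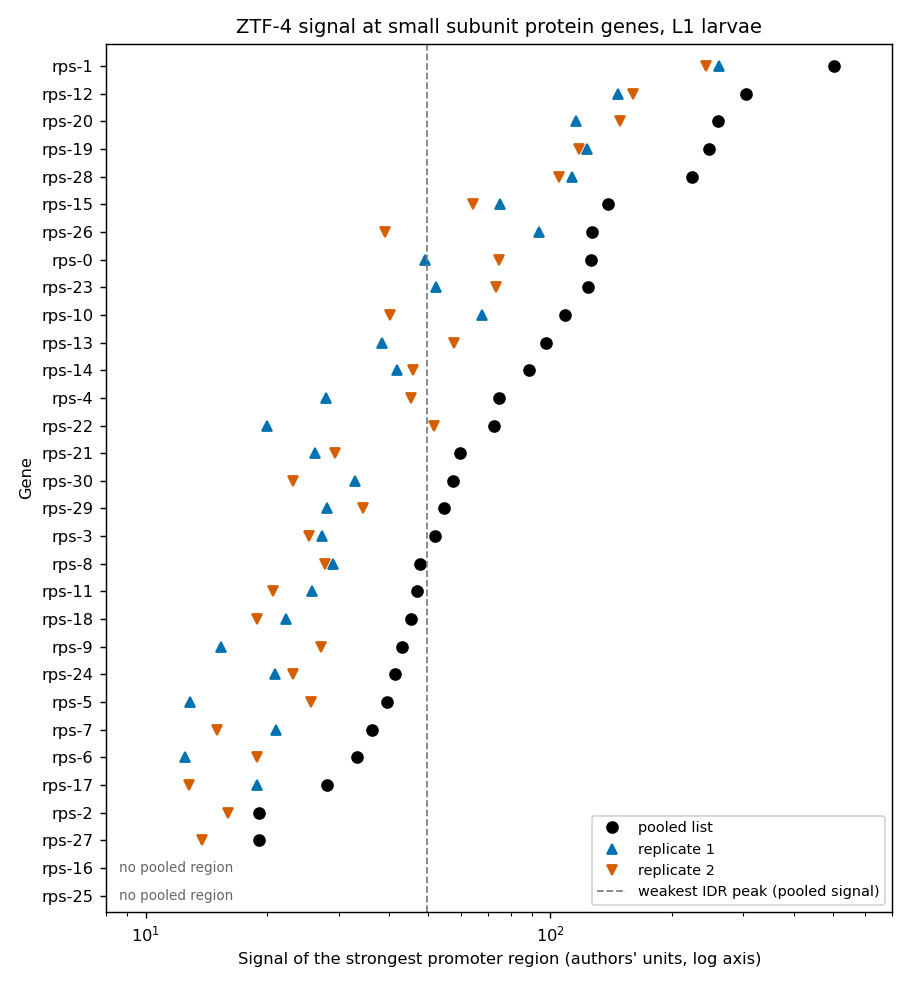
Signal of the strongest promoter region of each of the 31 rps genes (rows, by falling pooled signal) on a log axis in the authors' units, with black circles for the pooled list, upward triangles for replicate 1 and downward triangles for replicate 2. The dashed line is the weakest IDR peak, at 49.6: 18 genes lie right of it, 11 left of it, and rps-16 and rps-25 have no pooled region.

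Genes on either side of the IDR threshold were close together in signal. Just inside lay rps-29 with 54.6 and rps-3 with 51.9, and just outside lay rps-8 with 47.7 and rps-11 with 46.9, around the weakest IDR peak of the whole list at 49.6. Summits inside the promoter window kept well clear of its edges. The nearest to the upstream edge were those of rps-29 at -531 bp and rps-28 at -449 bp, and the nearest to the downstream edge were those of rps-22 at -124 bp and rps-12 at -155 bp. Outside the window, the closest IDR summits were 1 at +858 bp of rps-25, in the window of inx-7, and 1 at -1766 bp of rps-16.

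The DNA at the summit is shown for 6 member peaks, since these stretches are where the recovered fragments piled up. They are the strongest 6 once rps-20, rps-19, rps-15, rps-26 and rps-10 are left aside, whose sequences are not shown here whatever their signal. Each reaches 50 bp to both sides of the summit, runs 5' to 3' on the strand of the rps gene and was read from the RefSeq genome of WBcel235, the same assembly as ce11. Capitals mark the shared elements described further on, and a sequence in lower case throughout holds none of them. The stretches are chrIII:4475613-4475713 for rps-1 (plus strand), chrIII:5679093-5679193 for rps-12 (plus strand), chrIV:1659192-1659292 for rps-28 (plus strand), chrIII:4754316-4754416 for rps-0 (minus strand), chrIV:12391287-12391387 for rps-23 (minus strand) and chrIII:6375143-6375243 for rps-13 (minus strand).
rps-1: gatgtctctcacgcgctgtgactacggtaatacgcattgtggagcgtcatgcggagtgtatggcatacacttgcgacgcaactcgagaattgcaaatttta
rps-12: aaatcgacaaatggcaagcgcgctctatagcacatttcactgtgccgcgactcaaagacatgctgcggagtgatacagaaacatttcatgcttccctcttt
rps-28: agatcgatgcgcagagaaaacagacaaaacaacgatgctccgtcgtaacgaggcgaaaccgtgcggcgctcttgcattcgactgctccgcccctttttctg
rps-0: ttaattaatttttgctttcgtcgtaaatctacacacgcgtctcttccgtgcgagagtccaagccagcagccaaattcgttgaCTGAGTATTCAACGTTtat
rps-23: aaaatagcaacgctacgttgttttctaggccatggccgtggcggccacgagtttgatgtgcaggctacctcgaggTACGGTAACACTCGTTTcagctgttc
rps-13: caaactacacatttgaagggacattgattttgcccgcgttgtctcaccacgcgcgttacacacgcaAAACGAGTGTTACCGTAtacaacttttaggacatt

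Of these 6 sequences, those of rps-0, rps-23 and rps-13 hold 1 shared element each and the others none. No relation of elements to signal can be read from these 6, since of the stronger peaks not shown rps-20 and rps-19 hold an element too. All 6 summits lie between genes except that of rps-1, and none of the stretches overlaps an annotated UTR. Over all 18 member peaks the GC content within 50 bp of the summit ranged from 41.6% to 59.4% with a median of 48.5%, against a median of 46.5% over the 1898 IDR peaks.

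Both replicates had a region within 100 bp of the pooled summit at all 18 member peaks, and at 1767 of all 1898 IDR peaks. The signal was higher in replicate 1 at 8 of them and in replicate 2 at 10, with a median ratio of replicate 1 to replicate 2 of 0.916 (range 0.387 to 2.40). Over the 1767 IDR peaks matched in both replicates the median ratio was 1.01, with 0.510 at the 5th and 2.08 at the 95th percentile. The rank correlation of the 2 signals over the 18 peaks was 0.771 (Spearman) and the correlation of log2 signals 0.83 (Pearson), as a description of sites that share both libraries. The IDR filter itself favours regions that recur, so these values are no independent measure of agreement.

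The replicates differed most in rank at rps-22, rps-26 and rps-4. At rps-22, whose product uS8 binds the central part of the ribosomal RNA, the signal was 20 (rank 3500) in replicate 1 and 51.6 (rank 486) in replicate 2. At rps-26 it was 93.5 (rank 145) in replicate 1 and 39.0 (rank 872) in replicate 2. Both ratios lie outside the range between the 5th and 95th percentiles of all IDR peaks. By definition 5% of the matched IDR peaks lie below that range and 5% above it, so such ratios are not particular to rps peaks. At rps-4, for eS4 of the body, the signal was 27.9 (rank 1787) in replicate 1 and 45.2 (rank 628) in replicate 2. With the 1898 strongest regions of replicate 1 alone, 17 rps genes had a promoter region, against 5.53% of all genes. With those of replicate 2 alone, 18 did, against 6.06%. In all, 14 of the 18 member peaks lay among the 1898 strongest regions of both replicates. The same share over all IDR peaks is not given here, so 14 of 18 cannot be called high or low.

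**Figure D2:**
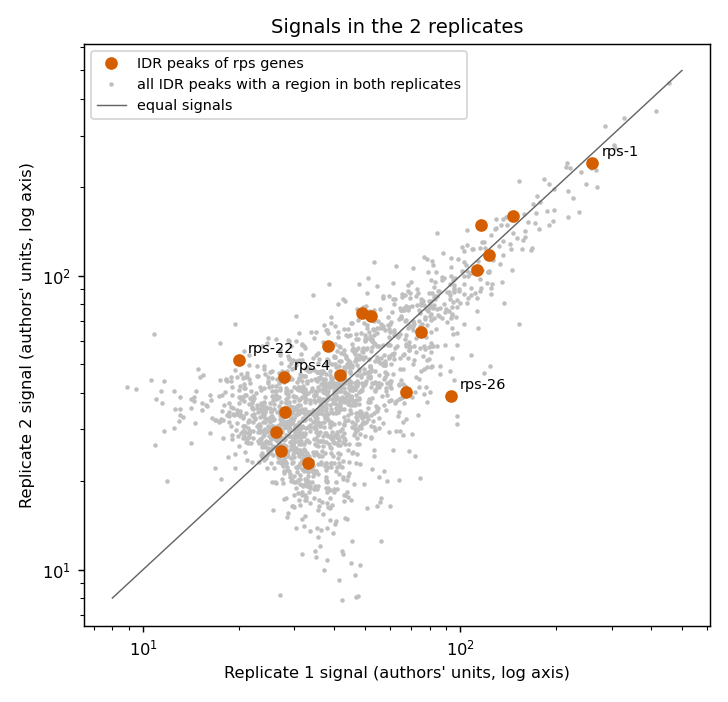
Signal in replicate 1 (x axis) against replicate 2 (y axis), both on log axes in the authors' units, for the 18 IDR peaks of rps genes (orange) and all 1767 IDR peaks with a region in both replicates (grey), with the line of equal signals. The strongest member, rps-1, sits near the line, and rps-22 and rps-26 lie farthest from it on opposite sides.

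The summits lay in a narrow band upstream of the genes. Their median position was -296 bp, with quartiles at -340 and -256 bp and a full range from -531 to -124 bp. For all 1213 protein-coding genes with an IDR promoter peak the median was -246 bp, with quartiles at -436 and -136 bp, and 94.6% of their summits lay upstream. Of the 18 member summits, 16 were intergenic, and those of rps-1 and rps-10 fell in exons of the non-coding genes F56F3.10 and D1007.22. Coding exons, UTRs and introns of protein-coding genes held 0. The same shares over all genes with an IDR promoter peak are not given here, so these places describe the members only.

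Most rps genes are arranged head to head with another gene, and so most of the peaks cannot be given to the rps gene alone. A divergent protein-coding neighbour within 1000 bp was present for 19 of the 31 rps genes (61.3%), against 17.5% of all protein-coding genes. Of these 19, 15 had an IDR peak, against 13.7% of all genes so arranged. Of the other 12 rps genes 3 had one, against 4.45% of all other genes. In all 15 divergent pairs the summit lay between both 5' ends, which were 265 to 780 bp apart, and in 11 of the 15 it was nearer to the partner.

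The partners were of many kinds. For rps-1 the partner was ifet-1, a repressor of translation, and the summit was 255 bp from rps-1 and 513 bp from ifet-1. For rps-12 it was ska-3, a gene of the spindle and kinetochore (155 bp and 138 bp), for rps-20 it was ekl-4 (242 bp and 155 bp), and for rps-19 it was hsr-9 (278 bp and 167 bp). At rps-26 the summit was 413 bp from the rps gene and only 44 bp from tmem-107, a gene of the ciliary transition zone. At rps-29 it was 531 bp away and 36 bp from snt-2, a synaptotagmin, and at rps-0 it was 315 bp away and 58 bp from rbg-3. These 3 summits were therefore much closer to the partner than to the rps gene.

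For 3 genes the partner encodes a protein of the large subunit, so 1 peak is counted for a gene of each subunit. The peak of rps-10 was 328 bp from rps-10 and 282 bp from rpl-24.1. That of rps-14 was 258 bp from rps-14, 405 bp from rpl-36 and 906 bp from ndab-2, which also holds it in its window. That of rps-30 was 284 bp from rps-30 and 215 bp from rpl-39. The large subunit gene was the nearer one at rps-10 and rps-30.

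The remaining shared peaks lay between rps-3 and sna-3 (344 and 248 bp), rps-13 and nfx-1 (196 and 186 bp), rps-15 and F36A2.9 (387 and 394 bp), rps-22 and polh-1, a DNA polymerase of lesion bypass (124 and 142 bp), and rps-23 and dpm-3, a subunit of a mannose transferase (284 and 250 bp). The peak of rps-28 was shared in another way, with the downstream gene Y41D4B.4 on the same strand, whose 5' end is separated from that of rps-28 by 418 bp. In all, 16 of the 18 member peaks (88.9%) lay in the window of another protein-coding gene, against 586 of the 1213 genes with an IDR promoter peak (48.3%).

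Only rps-4 and rps-21 had a peak in no other window. The upstream neighbour of each, deb-1 and mec-14, is on the same strand. Counted in this way, 2 of 31 rps genes (6.45%, 95% interval 0.791% to 21.4%) had an IDR peak, against 3.15% of all genes. When a peak was counted only for the gene with the nearest 5' end, 7 rps genes did (22.6%, interval 9.59% to 41.1%), against 4.54%. In a smaller window, 300 bp upstream and 100 bp into the gene, 9 did, against 3.6% of all genes. The count of rps genes with a peak therefore rests largely on divergent promoters. Under the strictest of these rules its interval takes in the share of all genes. That rule leaves out every summit between divergent 5' ends within 1000 bp, an arrangement of 61.3% of rps genes against 17.5% of all genes. The shares under it are therefore not like for like, and they cannot decide whether rps genes differ from other genes.

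**Figure D3:**
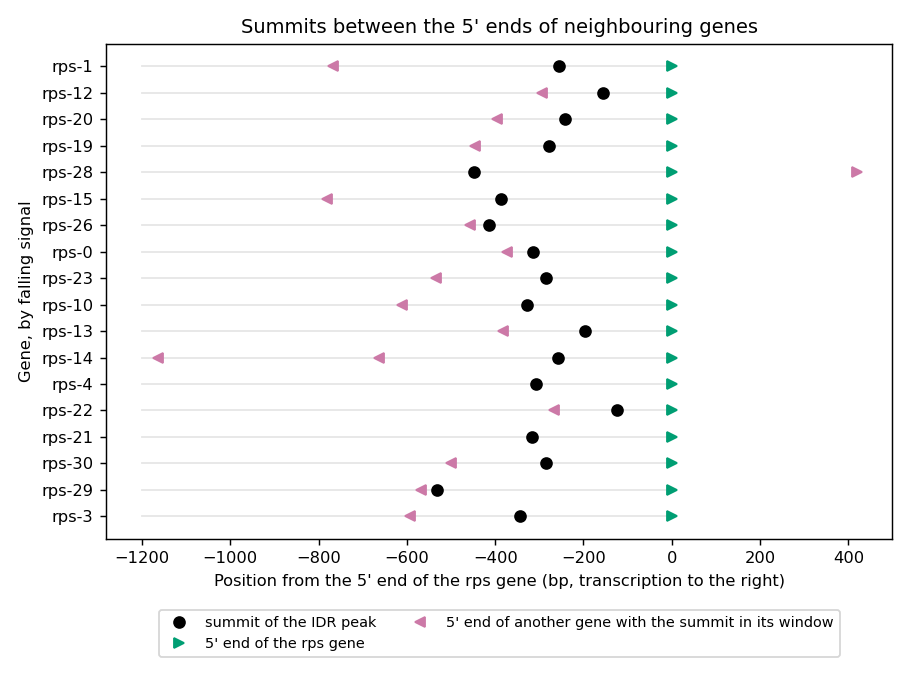
Position in bp from the 5' end of the rps gene (x axis, transcription to the right) of the IDR summit (black), the 5' end of the rps gene (green) and the 5' ends of other protein-coding genes that hold the summit in their window (pink, pointing in the direction of transcription), for the 18 rps genes with an IDR peak. In 15 rows the summit sits between 2 diverging genes, rps-28 has a partner downstream, and rps-4 and rps-21 have none.

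By the role of the protein, 9 of the 16 eS genes had an IDR peak, with pooled signals of 57.5 to 501 and a median of 127, and 9 of the 15 uS genes, with 51.9 to 260 and a median of 97.8. Of the 13 genes for proteins of the head 8 had a peak (51.9 to 305, median 182), and of the 18 for the body and platform 10 did (57.5 to 501, median 93.3). The ranges overlapped widely in both divisions. By position in the genome, all 9 rps genes of chromosome III had a peak, against 3 of 10 on IV, 5 of 8 on I, 1 of 3 on V and 0 of 1 on II. The share of all protein-coding genes with a peak was highest on chromosome III too, at 9.39%, against 4.23% to 7.85% on the other 5 chromosomes.

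Of the 13 rps genes without an IDR peak, 11 had a pooled region in the window, against 28.2% of all genes without an IDR promoter peak. Their signals ran from 19.1 to 47.7 with a median of 39.5, and the median over all 5298 such genes was 21.2. Closest to the threshold were rps-8 (eS8), with 29 and 27.8 in replicates 1 and 2 and 47.7 pooled, and rps-11 (uS17), with 25.8 and 20.7 and 46.9 pooled. In each replicate rps-8 was higher than rps-3, which passed the threshold with 27.3 and 25.3.

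Lower in the pooled list were rps-18 (uS13, a protein of the head) at 45.2, rps-9 (uS4 at the mRNA entry) at 42.9 and rps-24 (eS24) at 41.3. Below 40 lay rps-5 (uS7 near the exit tRNA) at 39.5, rps-7 (eS7) at 36.3, rps-6 (eS6, the substrate of S6 kinase) at 33.3 and rps-17 (eS17) at 28.1. The weakest, at 19.1 each, were rps-2 (uS5 at the mRNA entry) and rps-27 (eS27, a zinc-binding protein). A matching region in both replicates was present for 9 of these 11, and for rps-2 and rps-27 in replicate 2 only, with 16 and 13.8. Their summits lay from -765 to -217 bp with a median of -306 bp, close to the -296 bp of the IDR peaks. The summit farthest out, that of rps-18, fell in the 5' UTR of the divergent gene sec-61.A, and that of rps-2 in a coding exon of C49H3.12.

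No pooled region was found at rps-16, for uS9, whose tail reaches the tRNA, nor at rps-25, for eS25, which yeast and mammals use in initiation at internal entry sites. In replicate 1 neither gene had a region in the window. In replicate 2 the strongest had a signal of 7.87 (rank 23560) at rps-16 and 8.15 (rank 22124) at rps-25, near the weakest region of that list at 7.23. The gene rps-16 lies 109 bp downstream of fib-1, the gene of the nucleolar protein fibrillarin, on the same strand, and the 2 genes are known as an operon, transcribed from the promoter of the first. An IDR peak was present 84 bp upstream of fib-1, with 41.0 in replicate 1, 55.4 in replicate 2 and 95.8 pooled. It lies in the window of mut-15 as well, so it cannot be given to fib-1 alone. This is the summit 1766 bp upstream of rps-16.

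The DNA between fib-1 and rps-16, where no pooled summit lay, and the summit of rps-8, the highest below the IDR threshold, are shown for comparison with the strong peaks. They are chrV:15000542-15000650 and chrIV:7314099-7314199 in WBcel235, both 5' to 3' on the minus strand, which is the strand of both genes, from the RefSeq genome. Both are in lower case because neither holds a shared element.
rps-16: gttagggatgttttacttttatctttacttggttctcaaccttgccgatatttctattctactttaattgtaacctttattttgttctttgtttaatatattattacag
rps-8: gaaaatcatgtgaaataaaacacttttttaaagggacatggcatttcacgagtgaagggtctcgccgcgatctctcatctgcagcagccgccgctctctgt

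Words of 12 bases shared by at least 3 of the 18 member windows (50 bp to each side of the summit, either strand) merged into 3 elements. They were found in the member peaks after the peaks were known, so their counts among those peaks are a description and carry no test. Searches allowed 1 mismatch and read both strands. None of the 3 contains one of the 7 fixed motifs given further on, and no sites of different elements overlapped. The elements are given as found in WBcel235 at rps-23 (chrIV:12391296-12391312, plus strand), rps-0 (chrIII:4754319-4754334, plus strand) and rps-14 (chrIII:7179847-7179858, minus strand).
element A: AAACGAGTGTTACCGTA
element B: AACGTTGAATACTCAG
element C: ATTGGCTGCGTA

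Element A, of 17 bp, was present in 4 of the 18 member windows, those of rps-10, rps-13, rps-23 and rps-29, and in 0.79% of all IDR windows. Element B, of 16 bp, was present in 4, those of rps-0, rps-3, rps-20 and rps-22, and in 0.474%. Element C, of 12 bp, was present in 4, those of rps-3, rps-14, rps-19 and rps-21, and in 0.527%. Together they were present at 11 of the 18 member peaks, with rps-3 holding both B and C. The 11 peaks with an element had signals of 51.9 to 260 with a median of 97.8. The 7 without one (rps-1, rps-4, rps-12, rps-15, rps-26, rps-28 and rps-30) had 57.5 to 501 with a median of 139.

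The sites in the weaker member peaks are shown with 10 bp on each side, again 5' to 3' on the strand of the rps gene, with the elements in capitals. They show that the element can lie in either direction and that rps-14 holds C in both. The stretches are chrIII:793793-793829 for rps-29, chrIII:1950422-1950457 for rps-22, chrIII:7179803-7179868 for rps-14, chrIII:7189913-7189944 for rps-21 and chrIII:6206443-6206505 for rps-3. Those of rps-14 and rps-21 are on the minus strand and the others on the plus strand.
rps-29: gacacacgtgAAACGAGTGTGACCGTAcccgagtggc
rps-22: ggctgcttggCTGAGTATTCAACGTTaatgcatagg
rps-14: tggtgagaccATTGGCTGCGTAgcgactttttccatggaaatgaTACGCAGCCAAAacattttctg
rps-21: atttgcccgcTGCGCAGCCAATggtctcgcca
rps-3: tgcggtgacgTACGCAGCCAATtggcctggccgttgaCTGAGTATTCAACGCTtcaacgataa
The element of rps-29 is A with 1 mismatch, that of rps-22 is B without one, and that of rps-21 is C with 1 mismatch. In rps-14 the first C has no mismatch and the second has 1. In rps-3 the first is C and the second is B with 1 mismatch.

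The position of the elements relative to the summit differed between them. The elements were found within 50 bp of these summits, so nearness to the summit was set by the search and is only described. In the 4 rps promoters with C and an IDR peak the centre of its best match lay 0 to 19 bp from the summit, with a median of 7.5 bp. For A the distance was 24 to 42 bp (median 35) and for B 29 to 59 bp (median 40). Element B lay between the summit and the rps gene in all 5 rps promoters that held it, and on the reverse strand of the gene in each.

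The search was extended to the 600 bp upstream of every protein-coding gene. Any of the 3 elements was present in 14 of the 31 rps promoters, against 0.546% of all promoters. By element, A was in 6 rps promoters against 0.235% of all, B in 5 against 0.0751%, and C in 4 against 0.25%. Of the 14, 11 are promoters of the member peaks in which the elements were found. These counts therefore follow in large part from that choice. The rps promoters without an IDR peak had no part in the choice of the elements, and 2 of these 13 held A, namely rps-7 and rps-17. In rps-17 the site was 6 bp and in rps-7 43 bp from the summit of the weaker pooled region. In rps-30 a site of B lay 59 bp from the summit, just beyond the window searched at first.

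The promoters of the large subunit genes, except those shared with a member peak, likewise had no part in that choice. Of the 44 rpl genes that share no window with a member peak, 11 (25%) held an element. Of these 11, 8 had an IDR peak, against 26 of all 44 (59.1%), so the count is near the share of the list itself. Over all 47 rpl genes, A was present in 7, B in 4 and C in 3. Among the 29 mrps genes, for the small subunit of the mitochondrial ribosome, 0 held any. Divergent genes share their sites. Counted once, the sites numbered 30 for A, of which 12 lay in a promoter of an rps or rpl gene. They numbered 9 for B, of which 8 did, and 47 for C, of which 7 did. These counts include the sites at the member peaks where the elements were found. Of all 109 genes with an element 58 had an IDR promoter peak (53.2%), the rps genes whose peaks gave the elements included. By element the share was 68.1% for A, 86.7% for B and 30% for C. Of the 81 that were named neither rps nor rpl 35 had an IDR promoter peak, partners of rps and rpl genes included.

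**Figure D4:**
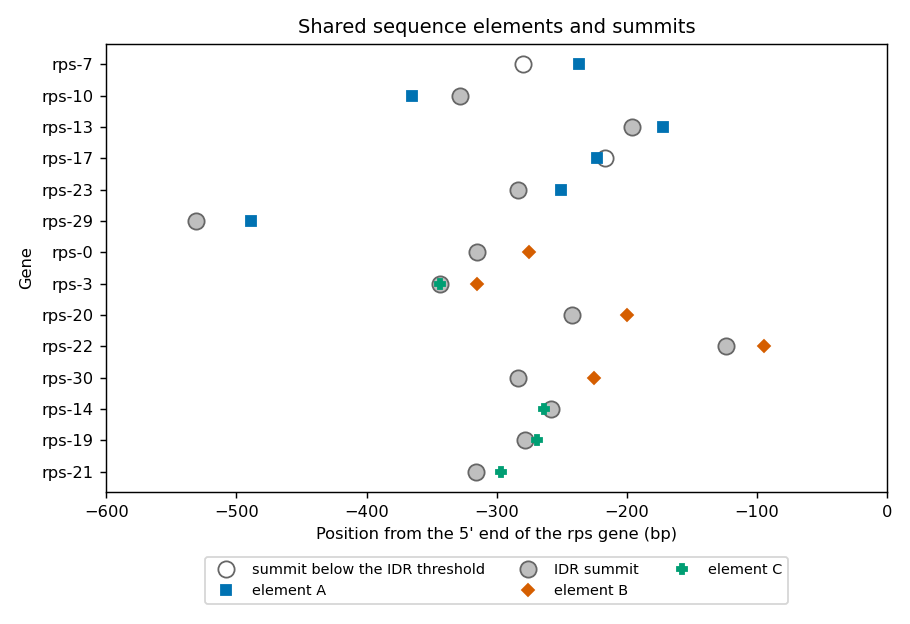
Position in bp from the 5' end of the gene (x axis) of the summit (circles, filled for an IDR peak and open for a region below the threshold) and of the centre of the best match to elements A (squares), B (diamonds) and C (crosses) in the 14 rps promoters that hold one. Element C lies within 19 bp of the summit, B lies 29 to 59 bp on its downstream side, and A lies on either side. The elements were found within 50 bp of the IDR summits, so their nearness was set by the search.

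A set of 7 short motifs was also looked for within 50 bp of the summit, on both strands. GAGAG, common at ZTF-4 peaks, was present at 3 of the 18 member peaks (16.7%), against 44.4% of all IDR peaks. It was as uncommon for the 29 rpl genes with a peak, at 4 of them (13.8%). CTGCGTC was present at 0 of 18, against 12.8% of all IDR peaks and 2 of the 29 rpl genes with a peak (6.9%). The other 5 were at 0 or 1 member peak, TTTTTTTT at 0 against 2.53%, CCGCCC at 1 against 5.22%, TATAAA at 1 against 4.79%, TTTCAG, which resembles a splice acceptor, at 1 against 6.59%, and CACGTG at 1 against 7.59%. None of the 7 contains another. The shorter word CTGCGT, which is CTGCGTC without its last base and is part of element C, was at 7 of the 18 member peaks. Of all IDR peaks 17.3% held it. From 250 bp before to 50 bp after the 5' end, GAGAG was present in 25.8% of rps promoters against 39.9% of all, TTTTTTTT in 32.3% against 32.5%, and TTTCAG in 61.3% against 51.7%. A match or its lack says only whether these letters occur in the window.

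Shorter words of 6 bases gave a wider view of the same member windows, again chosen after the peaks were known. The most common was CAGCCA, read on both strands and contained in element C, at 9 of the 18 member peaks, against 4.9% of all IDR peaks and 7.86% of all promoters. CGCAGC, which overlaps CAGCCA within C, was at 8 of 18 against 5.06% of IDR peaks and 4.33% of promoters. ACTCAG of element B was at 6 of 18 against 2.53% and 5.41%, and ACCGTA of element A at 6 of 18 against 5.22% and 8.11%. Words that lie in none of the elements reached 6 of 18 too, namely AGCGCG, against 7.27% and 4.81%, and AAATCG, against 9.11% and 28.9%. Parts of C were present at more member peaks than the whole element, which was at 4. A shorter word matches more readily, so that difference says nothing further about C.

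Genes for the other ribosomal proteins were set beside the rps genes under the same rule. An IDR peak was present at 29 of 47 rpl genes (61.7%, interval 46.4% to 75.5%), which overlaps the interval for the rps genes. The median signal was 116 for the rps genes and 99.3 for the rpl genes, and the median position -296 bp and -320 bp in the same order. The 3 strongest rpl peaks, of rpl-3 at 904, rpl-20 at 606 and rpl-15 at 583, were each higher than that of rps-1. Of the 29 mrps genes 4 had a peak (13.8%, interval 3.89% to 31.7%), with a highest signal of 111. That interval lies below the one for the rps genes, and the difference itself was not tested because neighbouring genes share peaks.

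A last list held 23 genes whose products are tied to the small subunit without being named rps, such as initiation factors, the ribosome-bound protein RACK-1 and the S6 kinase gene rsks-1. Of these 7 had an IDR peak (30.4%, interval 13.2% to 52.9%), which overlaps the interval for the rps genes. Highest were eif-3.C at 246, with 105 in replicate 1 and 143 in replicate 2, and eif-3.B at 134, both for subunits of the initiation factor that keeps the small subunit ready for mRNA. The gene ubl-1, which encodes the small subunit protein made as a fusion with a ubiquitin-like protein, had a peak of 56.0 at -185 bp, in no other window. The gene rack-1 had only a weaker region of 29.9, and rsks-1 had none in the window.

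**Figure D5:**
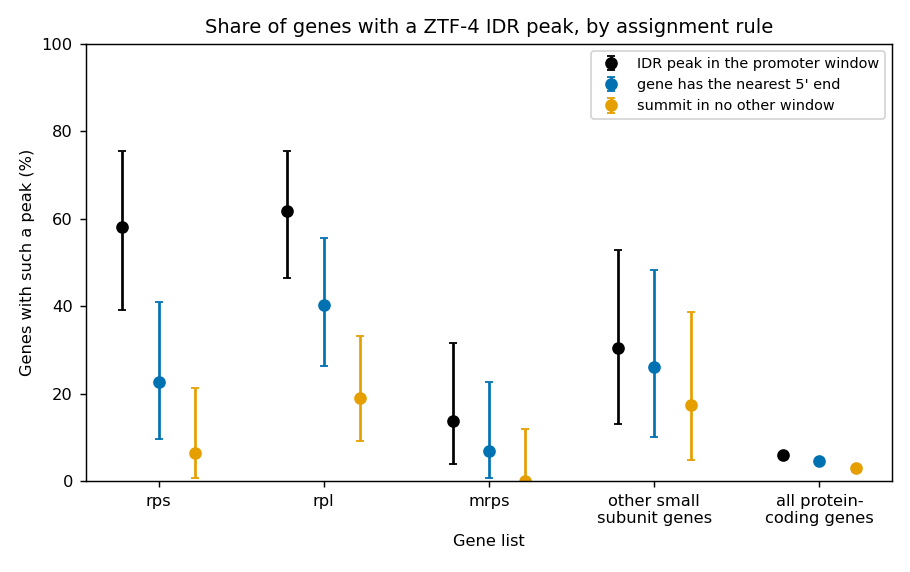
Percentage of genes (y axis) with an IDR peak in the promoter window (black), with the nearest 5' end to it (blue), or with a summit in no other window (orange), for the rps, rpl and mrps genes, other genes tied to the small subunit and all protein-coding genes, with exact 95% intervals for counting error. For the rps genes the value is 58.1% under the first rule, 22.6% under the second and 6.45% under the third.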

How the data were processed

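ChIP-seq against eGFP-ztf-4 was done in 2 biological replicates, per the labels. Per the deposited records, the authors' relaxed lists, called against a control, cover replicate 1 (27643 regions), replicate 2 (27140) and the pooled replicates (23044), and 1898 IDR peaks came from them. The deposited signal in column 7, the height of a region given by the authors' caller, was used as deposited. Not given in the sources used here were the aligner, the peak caller, the IDR cutoff and the antibody. No control library was analysed here. The depth is unknown.

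Summits in ce11 were set against Ensembl release 115 (WBcel235), with Python 3.11.15 and SciPy 1.17.1 scripts that were tested on simulated data. Each gene was described by the strongest summit in its window, and a replicate region was matched within 100 bp. Exact Clopper-Pearson 95% intervals cover counting error only. With 1 group there was no test between groups, and all results are counts, medians and values per replicate. The genes, lists, motifs and comparisons were chosen with earlier results of these data known. The genes named are the 8 strongest, every member without an IDR peak, every shared peak, the 3 with the largest rank ratio between replicates, those nearest each window edge and the 3 strongest rpl genes, and the others were named to account for every member. Elements A, B and C were found in the member peaks and searched with 1 mismatch in 600 bp upstream of genes. Alternatives were other windows, the stronger peaks, each replicate alone, other rules for giving peaks to genes and other match distances.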

Additional observations from a re-analysis of the deposited data

How the results depend on the processing

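The count of 18 rps genes with an IDR peak was taken again under other settings. Under the wide window (2000 bp upstream, 500 bp into the gene) it was 19, against 8.17% of all genes. With the stronger 949 peaks it was 14, against 3.41%. It stayed at 18 with any transcript's 5' end, against 6.6%, and with any overlap of peak and window, against 6.55%. Without replicate 1 it was 18, against 6.06%, and without replicate 2 it was 17, against 5.53%. It was 9 in the narrow window (300 bp upstream, 100 bp into the gene), against 3.6%, and 7 when the gene had to be the nearest, against 4.54%. When no other window could hold the summit it was 2, against 3.15%, and with the whole pooled list 29, against 32.6%. The median signal of 116 became 124 in the narrow and 109 in the wide window, 127 with the stronger peaks, 67.3 for unshared peaks and 88.7 for the nearest gene. With 1 replicate left out it was 52.3 to 54.8, on the scale of a single replicate. The median position of -296 bp became -255 in the narrow and -307 in the wide window, -281 with the stronger peaks, -312 for unshared peaks and -307 for the nearest gene, and was -298 to -288 with 1 replicate left out. The count of shared peaks, 16, became 7 in the narrow window, and with 1 replicate left out 15 were counted in either case. The 11 genes with a weaker region only became 6 in the narrow window. The causes were not tested, beyond the smaller or larger windows themselves. Replicate matches numbered 17 within 50 bp and 18 within 200 bp. Chosen after seeing the data, exact matching left 10 of the 14 rps promoters with an element, and 1000 bp promoters gave 15. No paired analysis was possible because there is 1 group. The limits are that no control library was analysed here, the unknown depth, the 2 replicates and the annotated 5' ends.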
